A study of Mus musculus with 59 samples.

Results

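Slc25a1 is the mitochondrial citrate carrier, and the data set out here are RNA profiles of hippocampus from mice labelled heterozygous for it and from mice labelled wild type. They comprise 15 poly(A) RNA-seq libraries of the 59 in the series, chosen by their labels alone. Of these, 7 were labelled Slc25a1 -/+ with Mrpl40 +/+ (Slc25a1 het below) and 8 were labelled +/+ at both genes (wild type). All animals were male, each library came from a different animal, and both groups share the labelled wild-type state of Mrpl40. The labels give neither age, strain nor treatment, nor what kind of allele the mice carry. The study also holds hippocampus labelled Mrpl40 het (7 libraries) and heterozygous for both genes (double het, 7 libraries), and cortex. Total counts per library ranged from 21467790 to 28700192 in wild type and from 25251231 to 29895407 in Slc25a1 het. Libraries are numbered by the labels' replicate numbers, 2 to 9 in wild type and 1 to 7 in Slc25a1 het.

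As background, the citrate carrier sits in the inner mitochondrial membrane and exchanges citrate made in the citrate cycle for malate. In the cytosol, citrate is split into oxaloacetate and acetyl-CoA, which feeds the synthesis of fatty acids and cholesterol and the acetylation of histones. The gene lies in the mouse region that matches human 22q11.2, as does Mrpl40, whose protein belongs to the mitochondrial ribosome's large subunit. Hippocampus holds CA1, CA2 and CA3 pyramidal neurons and dentate granule neurons, whose synapses depend on mitochondrial ATP.

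Slc25a1 (ENSMUSG00000003528) lay lower in most libraries labelled Slc25a1 het than in most labelled wild type, but 4 of the 15 libraries went against their label. Its level in CPM, counts scaled to a common library size, was 24.9, 26.6, 25.1, 23.2, 11.3, 12.3, 25.9 and 25.2 in wild-type libraries 2 to 9. In Slc25a1 het libraries 1 to 7 it was 11.9, 13.1, 24.5, 21.5, 11.8, 10.8 and 11.9 CPM. Wild-type libraries 6 and 7 thus stood at the level of most het libraries, and het libraries 3 and 4 near that of most wild-type libraries. The means were 21.8 ± 6.25 CPM (SD, n = 8) in wild type and 15.1 ± 5.52 CPM (SD, n = 7) in Slc25a1 het, and the groups overlapped. By edgeR's quasi-likelihood test with Benjamini-Hochberg adjustment, the log2 fold change was -0.53 ± 0.22 (SE) with an adjusted p of 0.599, above the threshold of 0.05. Without those 4 libraries it was -1.08, which is a description and no test, since they were picked by the level of this gene. Every direction below therefore refers to the labels. Medians without the 4 libraries are printed for the respiratory, cytosolic ribosomal, presynaptic, neuropeptide, immediate early, matrix, clock and cerebellar lists. For the other lists they are not printed and are drawn only in the plot of list medians with and without these libraries.

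**Figure D1:**
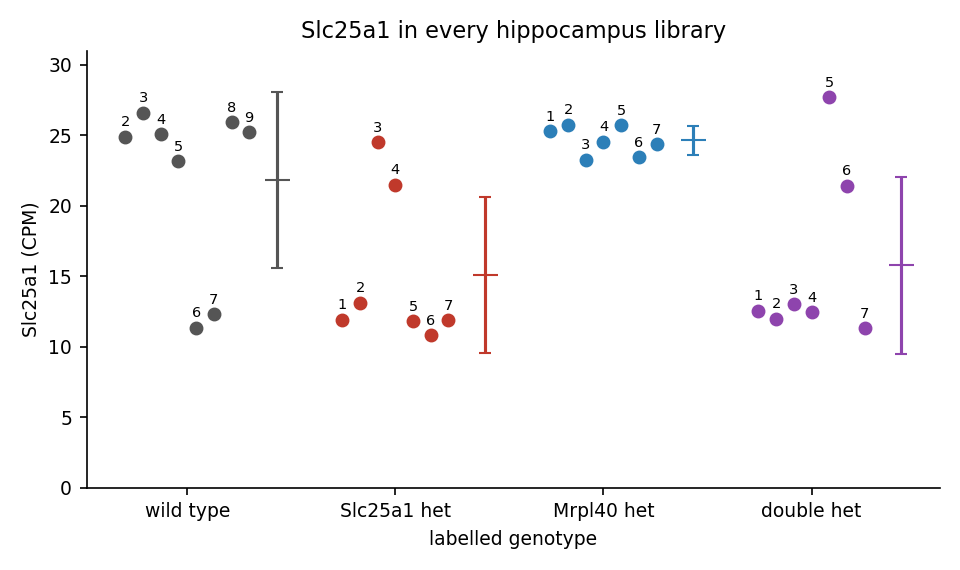
Slc25a1 level in CPM (y axis) in each hippocampus library by labelled genotype (x axis); numbers are replicate numbers, and the bars show the mean and SD of each group. Wild-type libraries 6 and 7 lie at 11.3 and 12.3 CPM and Slc25a1 het libraries 3 and 4 at 24.5 and 21.5 CPM, against their labels; double het libraries 5 and 6 also stand above the rest of their group.

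The promoter window of Slc25a1 is shown because its transcript is the one that the labels concern. It is RefSeq's window on GRCm38.p6, chr16:17928170-17928469 on the minus strand, from 250 bases before to 50 bases after the annotated start. The submitters' processing notes name GRCm39, and no coordinate was converted.
Slc25a1: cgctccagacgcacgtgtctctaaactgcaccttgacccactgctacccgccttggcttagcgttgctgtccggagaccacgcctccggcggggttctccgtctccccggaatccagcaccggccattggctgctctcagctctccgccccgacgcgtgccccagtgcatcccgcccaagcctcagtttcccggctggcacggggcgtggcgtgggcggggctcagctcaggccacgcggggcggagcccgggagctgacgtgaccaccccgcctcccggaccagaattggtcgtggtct
The window is 69.3% G and C and holds none of the 3 motifs searched below, which says only that those letters are not in it.

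Mrpl40 (ENSMUSG00000022706) ran from 13.4 through 16.1 to 17.5 CPM in wild type and from 14.5 through 15.2 to 16.4 CPM in Slc25a1 het. Here and below such values are the lowest, the median and the highest library of a group. Every het library lay within the wild-type range, and the log2 fold change was -0.031 ± 0.054 (SE).

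Of the 15 libraries, 2 stood apart by genes of neighbouring brain regions. In het library 3, Cbln1, a protein secreted by cerebellar granule cells, was at 88.2 CPM, against 1.35 to 2.46 CPM in the other het libraries. Its relative Cbln3 was at 189.7 CPM there, against at most 2.26 CPM in the others. Wild-type library 8 had the highest mean of the neocortical layer markers, 4.59 log2 CPM with the next wild-type library at 3.73, and the lowest of the dentate granule neuron genes, 6.02 with the next at 6.44. Mbp, myelin basic protein, was at 1853 CPM in that library, against 816 to 1401 CPM in the other wild-type libraries. Hippocampal genes were present in all 15 libraries: Prox1, the transcription factor of dentate granule neurons, ran from 169.5 to 302 CPM, and Camk2a, a kinase of excitatory neurons, from 4254 to 7508 CPM. Het library 3 is also one of the 4 that went against their label by Slc25a1. Cbln1, Mbp, Prox1 and Camk2a, and Ttr below, were chosen after their values were seen.

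No gene passed the test between the groups. Of 20162 genes, 0 (0%) had an adjusted p under 0.05 by edgeR's quasi-likelihood test, and DESeq2 called 0 as well. At an unadjusted p under 0.05 there were 1567 genes (7.77%) by edgeR, of which 817 (4.05%) lay lower and 750 (3.72%) higher in Slc25a1 het, and 1555 (7.71%) by DESeq2. Over all genes the median log2 fold change was 0.0045, and 48.1% lay below 0. In 31 genes (0.154%) all 7 het libraries lay below all 8 wild-type libraries, and in 10 genes (0.0496%) they all lay above. The gene lists below are read against these shares, and a gene said to lie at a value has that log2 fold change.

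Among genes that make, carry and use citrate, 16 of 20 lay below wild type, with a median log2 fold change of -0.030. Of these, 3 had an unadjusted p under 0.05, and Slc25a1 had the lowest value. Acss2, which makes acetyl-CoA from acetate, ran from 52.3 through 54.9 to 57.2 CPM in wild type and from 45.2 through 49.0 to 58.5 CPM in Slc25a1 het, with a log2 fold change of -0.12 ± 0.048 (SE). Acly, which splits cytosolic citrate and was chosen after its values were seen, ran from 145 through 155 to 162 CPM and from 142 through 151 to 163 CPM (log2 fold change -0.040 ± 0.043, SE), and its groups overlapped. The other SLC25 carriers, the transporter family of Slc25a1, had 26 of 40 measured members below 0 and a median of -0.028. Slc25a10, the dicarboxylate carrier, lay at -0.17 ± 0.078 (SE), and Slc25a4, an ADP/ATP carrier, at -0.084 ± 0.041 (SE). Histone acetyltransferases and deacetylases, which add and remove acetyl groups on histones, had 10 of 27 below 0 and a median of 0.024.

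Citrate cycle enzymes, which make the citrate that the carrier exports, had 19 of 22 members below wild type and a median of -0.045. Their mean log2 CPM per library ran from 6.96 to 7.00 in wild type and from 6.90 to 6.97 in Slc25a1 het, and 6 of 7 het libraries lay below the lowest wild-type library. Idh3a, the catalytic subunit of the NAD-dependent isocitrate dehydrogenase, ran from 180.3 through 191 to 202 CPM in wild type and from 155 through 176 to 179.8 CPM in Slc25a1 het, without overlap. Its log2 fold change was -0.14 ± 0.059 (SE), with an adjusted p of 0.603 by edgeR. Suclg1, a subunit of succinyl-CoA ligase, ran from 80.8 through 89.1 to 96.0 CPM and from 77.0 through 81.6 to 87.0 CPM (log2 fold change -0.11 ± 0.044, SE). Got2, the mitochondrial aspartate aminotransferase, lay at -0.12 ± 0.048 (SE), with the lowest of its 15 values in het library 7.

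Nuclear subunits of the respiratory chain and ATP synthase lay lower in libraries labelled Slc25a1 het almost without exception. Complex I, which takes electrons from NADH, had 35 of 36 subunits below 0, a median of -0.085 and 12 lower at an unadjusted p under 0.05, with 0 higher. Complexes II to V had 38 of 39 measured subunits below 0, a median of -0.076 and 14 lower at that p, with 0 higher. The 2 subunits above 0 were Ndufb8 of complex I (log2 fold change 0.029 ± 0.086, SE) and Atp5k of ATP synthase (log2 fold change 0.019 ± 0.053, SE). These 2 genes, and Ndufa10, Cox5a and Cycs below, were chosen after their values were seen. Both medians stayed below 0 in all 25 alternatives run, at -0.11 to -0.055 for complex I and -0.092 to -0.064 for complexes II to V. The value of complex I nearest to 0, -0.055, was that without wild-type library 6.

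By complex, the 4 subunits of complex II (succinate dehydrogenase) had a median of -0.043, the 9 of complex III (cytochrome bc1) of -0.076, the 11 of complex IV (cytochrome c oxidase) of -0.089 and the 14 of complex V (ATP synthase) of -0.081. Every measured member of complexes II, III and IV lay below 0, and 13 of 14 in complex V. Cycs, the electron carrier cytochrome c, lay at -0.10 ± 0.045 (SE). Single subunits ranged from -0.26 to 0.029 in complex I.

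**Figure D2:**
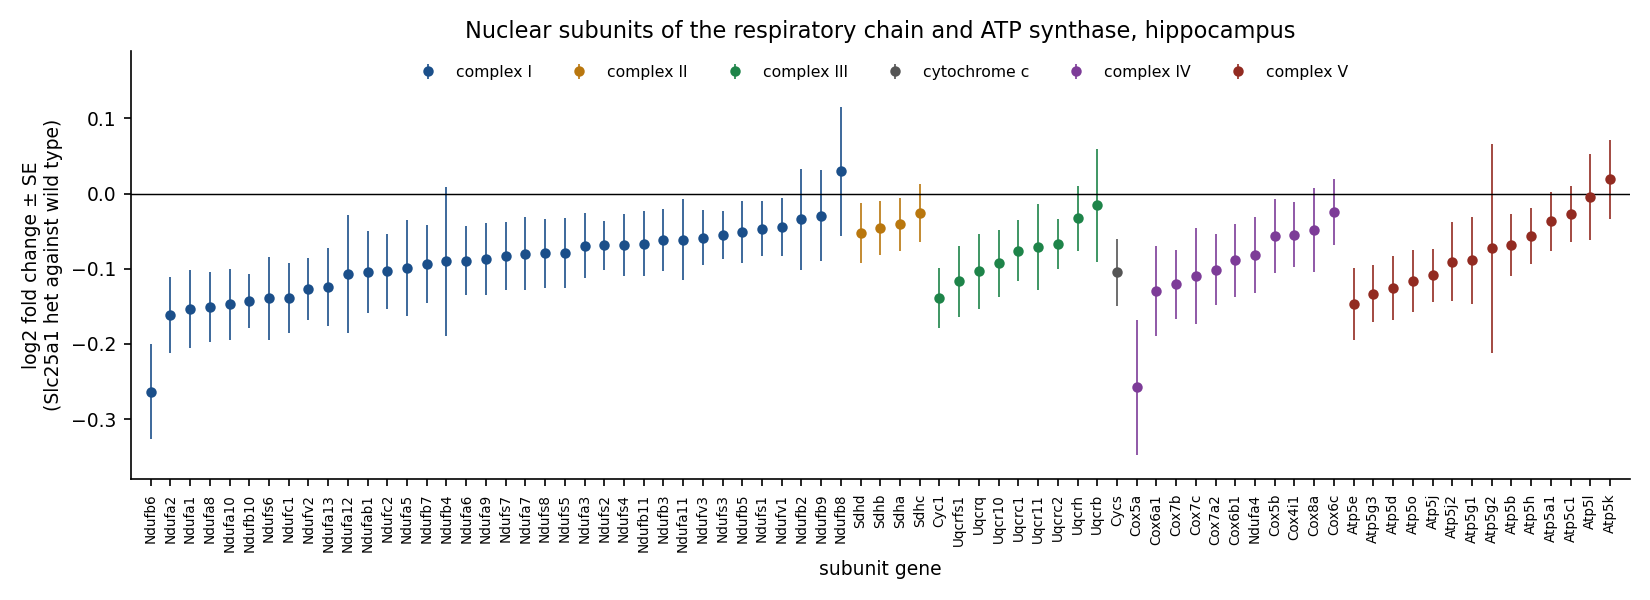
Log2 fold change of each nuclear subunit gene in hippocampus labelled Slc25a1 het against wild type (y axis; points are edgeR estimates and bars their SE), grouped by complex (x axis). Of the 75 genes, Ndufb8 and Atp5k lie above 0 and the others below; none passed the test.

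Ndufb6, an accessory subunit of the membrane arm of complex I, ran from 22.4 through 25.7 to 30.3 CPM in wild type and from 20.0 through 21.7 to 23.9 CPM in Slc25a1 het. Its log2 fold change was -0.26 ± 0.063 (SE), with an adjusted p of 0.359 by edgeR. Ndufb10, of the same arm, ran from 91.2 through 94.9 to 109 CPM and from 82.7 through 88.1 to 91.8 CPM, and het library 4 was the only one within the wild-type range. Its log2 fold change was -0.14 ± 0.036 (SE), with an adjusted p of 0.402 by edgeR. Ndufa10, another accessory subunit, was the 1 respiratory subunit whose groups did not overlap, from 120.2 through 126 to 133 CPM in wild type and from 111 through 114 to 119.7 CPM in Slc25a1 het. Over all genes, 0.154% lay wholly below wild type in this way. Atp5g3, which encodes the c subunit of the ATP synthase rotor, ran from 178 through 181 to 196 CPM and from 157 through 167 to 180.3 CPM (log2 fold change -0.13 ± 0.037, SE), and het library 4 alone reached the wild-type range. Cyc1, the cytochrome c1 of complex III, ran from 98.6 through 103 to 114 CPM and from 87.2 through 95.3 to 99.9 CPM (log2 fold change -0.14 ± 0.040, SE). Cox5a, a complex IV subunit, ran from 45.7 through 53.4 to 64.7 CPM and from 36.6 through 45.0 to 59.3 CPM, with widely spread groups (log2 fold change -0.26 ± 0.090, SE).

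Summed over the 75 genes, these subunits took 7285 to 7904 CPM of the wild-type libraries and 6891 to 7290 CPM of the het libraries. The highest wild-type sum was that of library 6, which has a low Slc25a1 level, and the highest het sums were those of libraries 3 and 4, which have a high one. In wild-type library 7, also low in Slc25a1, the sum was 7308 CPM, and of the wild-type libraries only library 9, at 7285 CPM, lay lower. Het library 3 was the only het library above the lowest wild-type library. Without the 4 libraries against their label the medians were -0.080 for complex I and -0.086 for complexes II to V. Without wild-type library 8 and het library 3 they were -0.11 and -0.081. Genes of the mitochondrial genome were not analysed here, since all 37 of their rows hold 0 counts in the deposited table.

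**Figure D3:**
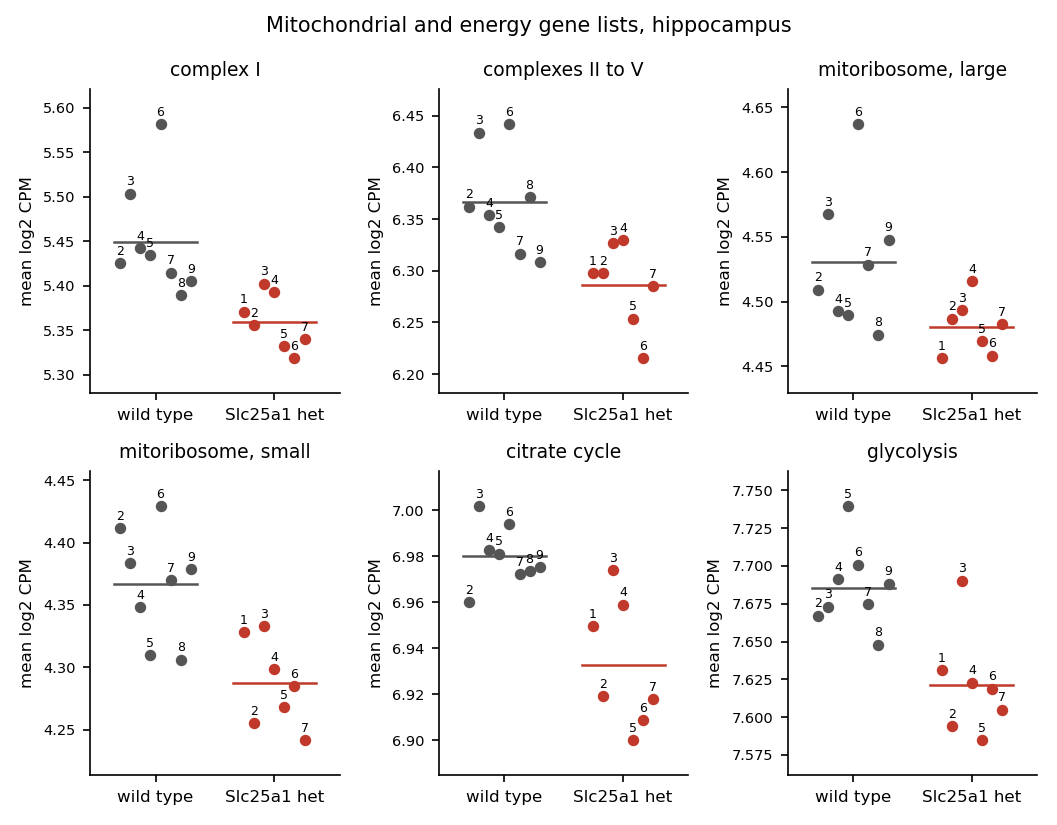
Mean log2 CPM of 6 gene lists (y axis, a scale per panel) in each hippocampus library labelled wild type (n = 8) or Slc25a1 het (n = 7) (x axis); numbers are replicate numbers and lines group means. The het mean lies below the wild-type mean in each panel, and in each panel at least 1 het library lies within the wild-type range.

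Promoter windows of 3 respiratory genes described above are shown, 2 that hold one of the motifs searched, in capitals, and 1 that holds none. All are RefSeq windows on GRCm38.p6, from 250 bases before to 50 after the annotated start, on the minus strand: Ndufb6 at chr4:40279372-40279671, Atp5g3 at chr2:73911277-73911576 and Ndufb10 at chr17:24724374-24724673.
Ndufb6: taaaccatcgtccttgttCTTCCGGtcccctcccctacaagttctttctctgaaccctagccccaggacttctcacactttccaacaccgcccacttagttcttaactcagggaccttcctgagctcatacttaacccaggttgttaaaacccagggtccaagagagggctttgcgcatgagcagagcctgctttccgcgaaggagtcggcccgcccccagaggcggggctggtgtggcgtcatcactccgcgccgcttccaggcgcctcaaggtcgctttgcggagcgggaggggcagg
Atp5g3: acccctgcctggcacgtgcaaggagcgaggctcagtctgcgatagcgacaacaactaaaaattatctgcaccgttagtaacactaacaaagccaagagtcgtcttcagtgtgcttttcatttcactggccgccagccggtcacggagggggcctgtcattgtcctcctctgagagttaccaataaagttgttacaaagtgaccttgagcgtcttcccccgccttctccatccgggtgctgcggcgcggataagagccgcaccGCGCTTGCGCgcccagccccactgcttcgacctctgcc
Ndufb10: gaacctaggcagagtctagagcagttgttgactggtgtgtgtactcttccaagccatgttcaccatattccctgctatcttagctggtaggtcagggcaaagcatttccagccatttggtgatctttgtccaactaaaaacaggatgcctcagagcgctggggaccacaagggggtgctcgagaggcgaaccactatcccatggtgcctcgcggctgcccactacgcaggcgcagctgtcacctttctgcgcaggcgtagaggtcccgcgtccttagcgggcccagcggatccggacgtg
Motifs were searched on both strands: the core bound by NRF1 (GCGC, any base, then TGCGC), an ETS family site (CCGGAAG) and a YY1 site (AAGATGGCG). The end of the second motif is the start of the third, so 1 stretch can hold both. The Ndufb6 window holds the ETS site on its other strand, and the Atp5g3 window holds the NRF1 core. The Ndufb10 window holds none of the 3. Of the 75 respiratory genes 63 had an entry, with 68 windows. The NRF1 core stood in 18 of them (26.5%), against 4.60% of all 32851 windows of the table, the ETS site in 16 (23.5%, against 8.86%) and the YY1 site in 7 (10.3%, against 1.40%). In the 75 windows of mitochondrial ribosome genes the shares were 17.3%, 34.7% and 10.7%, and in the 28 of presynaptic vesicle genes 10.7%, 0% and 0%. A match is a description of letters, and binding was not measured.

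The mitochondrial ribosome, which translates the subunits encoded in mitochondria, was also on the lower side. Large subunit genes had 42 of 49 below 0, a median of -0.057, and 6 lower and 0 higher at an unadjusted p under 0.05. Small subunit genes had 26 of 30 below 0, a median of -0.075, and 7 lower and 0 higher. Mrpl12, of the large subunit, ran from 32.5 through 35.2 to 37.2 CPM in wild type and from 31.0 through 31.5 to 35.1 CPM in Slc25a1 het (log2 fold change -0.12 ± 0.041, SE). Mrpl3, also of the large subunit, lay at -0.11 ± 0.037 (SE), and the small subunit genes Mrps11 and Mrps23 at -0.13 ± 0.045 (SE) and -0.12 ± 0.045 (SE).

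Several other genes of mitochondrial proteins were among the smallest p. Rbfa, a maturation factor of the small mitochondrial ribosomal subunit, ran from 6.92 through 9.02 to 10.9 CPM in wild type and from 6.65 through 7.01 to 8.32 CPM in Slc25a1 het, with a log2 fold change of -0.32 ± 0.082 (SE) and an adjusted p of 0.398 by edgeR. Coa6, an assembly factor of complex IV, ran from 8.53 through 10.5 to 11.6 CPM and from 7.69 through 8.82 to 9.28 CPM (log2 fold change -0.28 ± 0.068, SE, adjusted p 0.359 by edgeR). Tmem160, a protein of the mitochondrial inner membrane, ran from 8.54 through 10.9 to 11.8 CPM and from 7.71 through 8.20 to 9.34 CPM (log2 fold change -0.34 ± 0.084, SE, adjusted p 0.359 by edgeR). All 3 had overlapping groups. Hspe1, the mitochondrial chaperonin partner HSP10, lay at -0.18 ± 0.052 (SE).

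Transcript length moved with these differences. Among the 19640 tested genes with a length in GENCODE vM21, the median log2 fold change was -0.028 in the shortest group of 5 equal ones, with 58.6% of genes below 0, and 0.034 in the longest, with 31.0% below 0. Of the complex I genes 23 of 36, and of complexes II to V 23 of 39, were in the shortest group. With each library's length and GC trends taken out as offsets, the medians were -0.061 for complex I with 35 of 36 below 0, -0.064 for complexes II to V with 37 of 39, and -0.074 for the small mitochondrial ribosomal subunit with 27 of 30. Cytosolic ribosomal proteins, with 55 of 79 in the shortest group, had 48 of 79 below 0 and a median of -0.011. That median was 0.0045 with the offsets and 0.015 without the 4 libraries against their label. Rpl28 and Rpl27a lay at -0.25 ± 0.078 (SE) and -0.13 ± 0.045 (SE), and such genes share reads with processed pseudogenes, so their values are uncertain.

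Glycolysis, upstream of the citrate cycle, had 18 of 22 genes below 0, a median of -0.083 and 6 lower at an unadjusted p under 0.05. In 6 of 7 het libraries its mean lay below the lowest wild-type library. Tpi1, triosephosphate isomerase, ran from 454 through 477 to 492 CPM in wild type and from 408 through 424 to 450.3 CPM in Slc25a1 het, without overlap (log2 fold change -0.15 ± 0.050, SE, adjusted p 0.5 by edgeR). Eno1, an enolase with pseudogenes that may share its reads, lay at -0.21 ± 0.082 (SE). Cholesterol synthesis, a user of exported citrate, had 19 of 24 genes below 0, a median of -0.075 and 3 lower at an unadjusted p under 0.05. Fdft1, squalene synthase, ran from 67.4 through 72.0 to 76.6 CPM and from 56.8 through 63.0 to 71.9 CPM (log2 fold change -0.18 ± 0.068, SE). Acat2, the cytosolic acetyl-CoA acetyltransferase at the start of the pathway, lay at -0.16 ± 0.066 (SE).

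Heat shock proteins and co-chaperones, which fold other proteins, had 25 of 31 members below 0, a median of -0.083 and 7 lower at an unadjusted p under 0.05. In 3 of the 31 all het libraries lay below all wild-type libraries, as in 0.154% of all genes. Dnaja1, a co-chaperone of HSP70, ran from 174 through 181 to 189.8 CPM in wild type and from 157 through 162 to 172 CPM in Slc25a1 het. Cacybp, which binds S100 proteins and HSP90, ran from 68.8 through 71.6 to 79.5 CPM and from 60.5 through 66.1 to 67.6 CPM. Hsp90aa1, the inducible HSP90, ran from 736 through 794 to 815 CPM and from 615 through 696 to 714 CPM and was named for this count after its values were seen. The log2 fold changes of the 3 were -0.14 ± 0.043 (SE), -0.16 ± 0.049 (SE) and -0.21 ± 0.069 (SE). Genes of the ATF4 and mitochondrial stress response had 11 of 26 below 0 and a median of 0.031, with 2 lower and 3 higher at an unadjusted p under 0.05. Its 2 members with the smallest p lay on different sides. Hspe1, given above, lay at -0.18 ± 0.052 (SE), and Vldlr, a lipoprotein receptor, at 0.099 ± 0.038 (SE). Without het library 1 the median of that list was -0.013, on the other side of 0.

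Presynaptic vesicle genes had 20 of 27 members below wild type, a median of -0.12, and 6 lower and 0 higher at an unadjusted p under 0.05. In bulk tissue, fewer cells of a type and less RNA per cell cannot be told apart, here and for each cell type below. Rab3a, the small GTPase of synaptic vesicles, ran from 353 through 384 to 398 CPM in wild type and from 291 through 335 to 351 CPM in Slc25a1 het, without overlap (log2 fold change -0.20 ± 0.054, SE, adjusted p 0.451 by edgeR). Snap25, a SNARE of vesicle fusion, ran from 1946 through 2226 to 2440 CPM and from 1568 through 1907 to 2104 CPM (log2 fold change -0.22 ± 0.085, SE). Het library 7 was the lowest of all 15 for both. Slc17a7, the vesicular glutamate transporter of excitatory neurons, lay at -0.15 ± 0.094 (SE), and its groups overlapped. Without het library 7 the list's median was -0.061. It was -0.16 without the 4 libraries against their label and -0.10 without wild-type library 8 and het library 3.

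Neuropeptides and granins, the cargo of dense-core vesicles, had 18 of 25 members below 0, a median of -0.12 and 5 lower at an unadjusted p under 0.05. Chgb, a granin, ran from 585 through 788 to 1094 CPM in wild type and from 396 through 612 to 773 CPM in Slc25a1 het (log2 fold change -0.39 ± 0.16, SE). Cck, a neuropeptide precursor, lay below the lowest wild-type library in 6 of 7 het libraries, at 83.5 to 102 CPM against 112 CPM, while het library 1 had the highest of all 15 values, 142 CPM. The list's median was -0.063 without wild-type library 8, -0.069 without het library 5, -0.082 without het library 4, -0.051 without wild-type library 8 and het library 3, and -0.079 without the 4 libraries against their label.

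Immediate early genes, which neuronal activity induces, had 23 of 26 members below 0 and a median of -0.068. It was -0.028 without wild-type library 8 and het library 3, -0.11 without the 4 libraries, -0.13 without het library 1 and -0.042 without het library 3. Klf2, a zinc finger factor, lay at -0.31 ± 0.13 (SE) and Fosb, an AP-1 subunit, at -0.28 ± 0.12 (SE). Jund, an AP-1 subunit outside that list, ran from 24.8 through 26.3 to 30.4 CPM in wild type and from 16.6 through 21.6 to 27.3 CPM in Slc25a1 het. Het library 1 alone reached the wild-type range of Jund, whose log2 fold change was -0.30 ± 0.068 (SE), with an adjusted p of 0.359 by edgeR.

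Genes of the hippocampal subfields lay on different sides. CA3 pyramidal neuron genes had 10 of 11 members below 0 and the lowest median of the 49 lists, -0.27, with 0 lower at an unadjusted p under 0.05. Their mean log2 CPM ran from 4.56 to 5.01 in wild type and from 4.09 to 4.94 in Slc25a1 het. Het libraries 1, 2, 4 and 7 lay below every wild-type library, and het library 3 above 6 of the 8. The median was -0.50 without wild-type library 8 and het library 3. Bok, a BCL2 family member, ran from 20.0 through 50.1 to 61.3 CPM in wild type and from 22.1 through 33.1 to 43.5 CPM in Slc25a1 het, and Iyd, an iodotyrosine deiodinase, from 3.07 through 6.38 to 8.90 CPM and from 2.67 through 5.48 to 6.25 CPM. Hs3st4, a heparan sulfate sulfotransferase among the hippocampal neuron markers, ran from 65.3 through 76.9 to 122 CPM and from 49.4 through 63.2 to 70.2 CPM (log2 fold change -0.52 ± 0.22, SE), and 5 of its 7 het values lay below the lowest wild-type value. That marker list, which also holds Slc17a7, had 6 of 11 measured members below 0 and a median of -0.025. The median was 0.017 without het library 3, on the other side of 0, and -0.10 without wild-type library 8.

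CA1 pyramidal neuron genes had 9 of 10 members above 0 and a median of 0.24, with 0 higher at an unadjusted p under 0.05. Their mean log2 CPM ran from 4.38 to 5.34 in wild type and from 3.78 to 5.95 in Slc25a1 het, and het library 1 was the highest and het library 6 the lowest of all 15. The median was 0.022 without het library 1, 0.39 without wild-type library 8, 0.37 without het library 3, 0.39 without het library 6 and 0.49 without wild-type library 8 and het library 3. Man1a, a mannosidase, ran from 20.9 through 33.0 to 45.8 CPM in wild type and from 18.8 through 39.4 to 84.6 CPM in Slc25a1 het, and Lefty1, a secreted inhibitor of Nodal, from 0.958 through 3.00 to 3.84 CPM and from 0.628 through 4.25 to 7.00 CPM. Dentate granule neuron genes had 13 of 15 above 0 and a median of 0.086, which was 0.022 without wild-type library 8, 0.14 without het library 1 and 0.054 without het library 5 or 6. Calb1, a calcium buffer, and Dsp, desmoplakin, lay at 0.12 ± 0.12 (SE) and 0.17 ± 0.18 (SE). CA2 genes had 4 of 9 below 0 and a median of 0.0022. Dentate neurogenesis genes had 4 of 15 below 0 and a median of 0.031, with Top2a, a topoisomerase of dividing cells, at 0.44 ± 0.17 (SE). Eomes, a factor of intermediate progenitors, lay at 0.75 ± 0.30 (SE), with 3.64 CPM in het library 3 and at most 2.23 CPM in the other het libraries. Without het library 3 its log2 fold change was 0.38.

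Astrocyte and microglia lists lay slightly higher in libraries labelled Slc25a1 het. Astrocyte markers had 11 of 12 members above 0, a median of 0.091 and 3 higher at an unadjusted p under 0.05, and their summed level was 5547 to 6908 CPM in wild type and 5658 to 7667 CPM in Slc25a1 het. Slc1a3, the astrocyte glutamate transporter GLAST, ran from 662 through 742 to 789.9 CPM in wild type and from 705 through 848 to 1053 CPM in Slc25a1 het (log2 fold change 0.21 ± 0.069, SE). Its highest value was that of het library 7, which had the lowest Rab3a, Snap25, Chgb and Jund of all 15. Aqp4, the water channel of astrocyte endfeet, lay at 0.18 ± 0.078 (SE). Microglia markers had 10 of 12 above 0, a median of 0.081 and a summed level of 424 to 539.9 CPM in wild type and 410.2 to 607 CPM in Slc25a1 het, with Csf1r, the receptor microglia need to survive, at 0.15 ± 0.073 (SE) and P2ry12, a purinergic receptor, at 0.17 ± 0.088 (SE). Oligodendrocyte markers had 9 of 12 below 0 and a median of -0.020, which was 0.14 without wild-type library 8 and het library 3. Without het library 7 the medians were 0.056 for astrocyte and 0.041 for microglia markers, and Csf1r and P2ry12 both lay at 0.10. The astrocyte median was 0.060 without het library 3, and the microglia median 0.044 without het library 1. Without wild-type library 8 and het library 3, 5 of 12 microglia markers lay below 0. The part of these glial levels in the neuronal and mitochondrial lists was not tested.

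**Figure D4:**
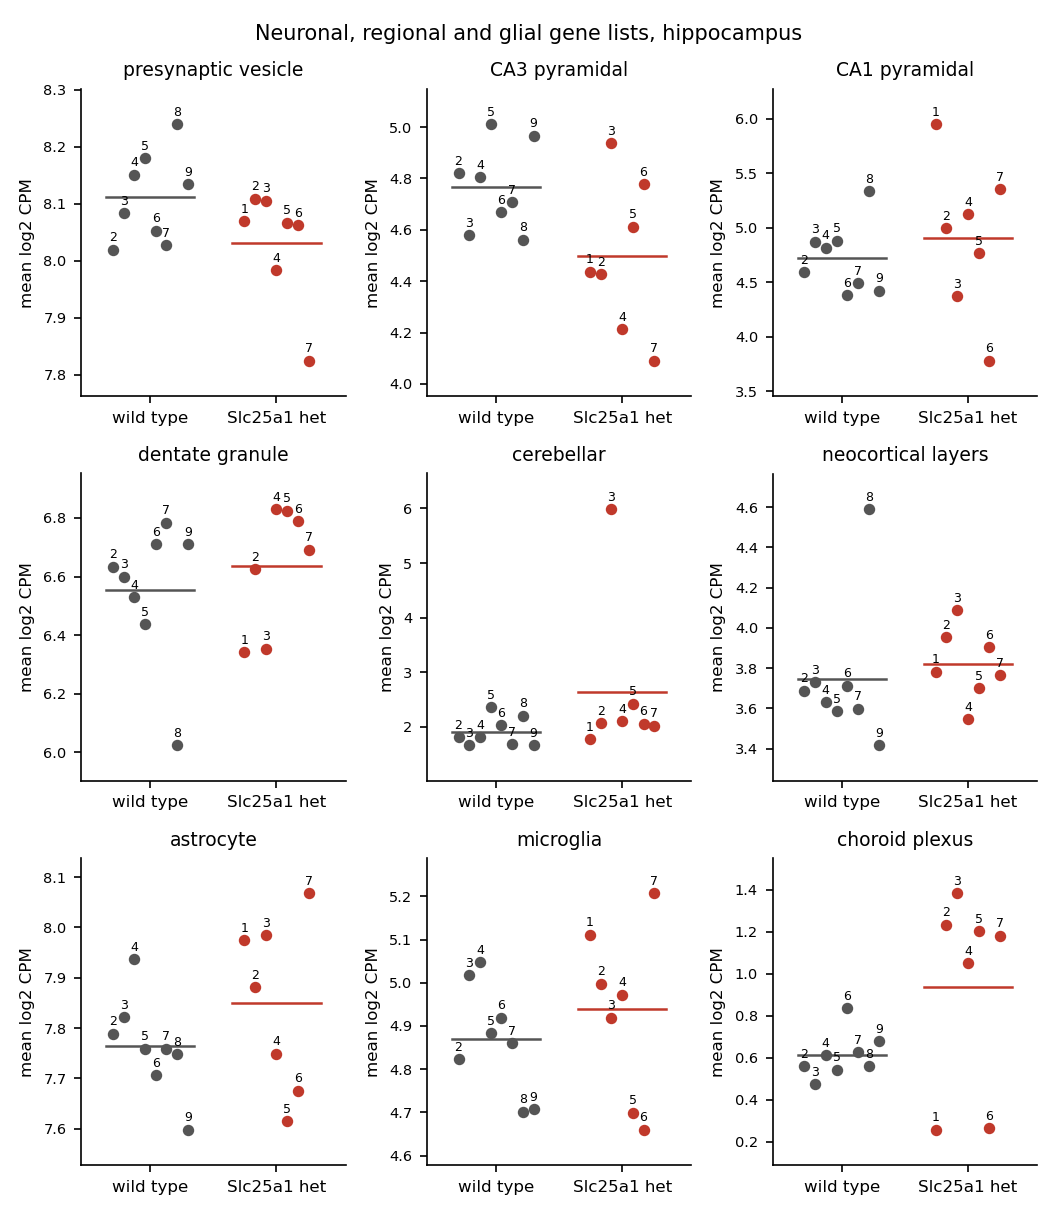
Mean log2 CPM of 9 gene lists (y axis, a scale per panel) in each hippocampus library labelled wild type (n = 8) or Slc25a1 het (n = 7) (x axis); numbers are replicate numbers and lines group means. Het library 3 stands alone in the cerebellar panel at 5.99, and wild-type library 8 in the neocortical panel at 4.59 and in the dentate granule panel at 6.02.

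Among markers of neighbouring tissue, the cerebellar ones rested on het library 3, while the choroid plexus median stayed above 0 whichever 1 library was left out. Cerebellar markers had 11 of 11 measured members above 0, a summed level of 249 to 346 CPM in wild type and 272 to 1091 CPM in Slc25a1 het, and a median of 2.10, which was 0.088 without het library 3. That sum includes Calb1, also a dentate granule neuron gene, which averaged 221 CPM in wild type and 241 CPM in Slc25a1 het. The summed level is therefore not one of cerebellar cells alone. Fat2, a cadherin of cerebellar granule cells, was at 75.2 CPM in that library and at most 1.13 CPM in the other het libraries, and Zic1, a cerebellar transcription factor, at 146 against at most 11.0 CPM. Gabra6 and Barhl1, also listed, did not pass the filter on low counts. Choroid plexus markers had 7 of 10 measured members above 0 and a median of 0.16. It was 0.085 without wild-type library 5, 0.10 without het library 1 and 0.21 without het library 3. Their mean lay above the highest wild-type library in 5 of 7 het libraries (mean log2 CPM from 0.48 to 0.84 in wild type and from 0.26 to 1.38 in Slc25a1 het). Their summed level was 110.4 to 184 CPM in wild type and 113 to 167 CPM in Slc25a1 het. Ttr, transthyretin, ran from 0.689 to 5.87 CPM in wild type and from 0.271 to 11.0 CPM in Slc25a1 het, and Clic6 and Otx2 rest on 1 to 55 and 0 to 120 counts per library. Otx2 lay at 3.49 ± 1.09 (SE), and at 1.73 without het library 3. Without het library 3 the medians were -0.097 for complex I and -0.080 for complexes II to V, and the part of the choroid plexus and other regional markers in the lists above was not tested.

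Other genes of the 22q11.2-matching region, listed without Slc25a1 and Mrpl40, had 17 of 32 measured members below 0 and a median of -0.0092. Txnrd2, the mitochondrial thioredoxin reductase, ran from 12.3 through 13.6 to 13.9 CPM in wild type and from 11.4 through 11.9 to 12.6 CPM in Slc25a1 het (log2 fold change -0.18 ± 0.057, SE, adjusted p 0.5 by edgeR), and wild-type library 8 was the only one within the het range. Tango2, a gene of mitochondrial and lipid homeostasis, ran from 59.3 through 62.3 to 73.8 CPM and from 49.7 through 57.4 to 62.9 CPM (log2 fold change -0.18 ± 0.064, SE). Among genes that often differ between mouse strains, some showed steps that the labels do not give. Ide, the insulin-degrading enzyme, was between 45.4 and 50.2 CPM in wild-type libraries 2 to 7 and at 77.7 and 73.5 CPM in libraries 8 and 9. In Slc25a1 het it was at 50.9 and 52.9 CPM in libraries 2 and 7 and between 71.8 and 77.4 CPM in the rest. Wdfy1, an endosomal protein chosen after its values were seen, was between 38.6 and 40.3 CPM in wild-type libraries 2, 3 and 4, at 40.4 CPM in het library 6, and between 22.1 and 28.1 CPM in the other 11.

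Among the remaining genes with the smallest p, most lay lower. Akr7a5, an aldo-keto reductase, ran from 15.7 through 16.3 to 18.4 CPM in wild type and from 13.1 through 13.6 to 15.4 CPM in Slc25a1 het, without overlap (log2 fold change -0.25 ± 0.057, SE, adjusted p 0.359 by edgeR). Map1lc3a, an LC3 protein of autophagosomes, ran from 59.1 through 64.1 to 70.4 CPM and from 51.1 through 56.0 to 59.0 CPM, also without overlap (log2 fold change -0.23 ± 0.055, SE). Snrpf, a core spliceosome protein, lay at -0.36 ± 0.089 (SE), Yeats4, a reader of acylated histones, at -0.20 ± 0.047 (SE), and Acyp2, an acylphosphatase, at -0.26 ± 0.068 (SE). Nudc-ps1, a pseudogene that may share reads with its parent, lay at -0.20 ± 0.051 (SE). The predicted genes Gm15710 and 1110065P20Rik fall outside the naming rule and were chosen after their values were seen. Gm15710 had the smallest p of all genes, 5.09e-05 (adjusted p 0.359 by edgeR), and ran from 41.5 through 46.8 to 51.0 CPM in wild type and from 33.8 through 38.9 to 43.2 CPM in Slc25a1 het (log2 fold change -0.24 ± 0.052, SE). 1110065P20Rik ran from 6.54 through 10.0 to 11.4 CPM and from 5.85 through 6.91 to 8.55 CPM (log2 fold change -0.46 ± 0.11, SE, p 0.000214 by edgeR), and the groups of both overlapped.

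On the higher side, Strn3, a striatin of the STRIPAK phosphatase complex, ran from 67.2 through 69.6 to 72.8 CPM in wild type and from 73.2 through 76.3 to 80.2 CPM in Slc25a1 het, with every het library above every wild-type library (log2 fold change 0.14 ± 0.032, SE, adjusted p 0.359 by edgeR). Patl1, an mRNA decapping factor, ran from 28.0 through 30.7 to 33.1 CPM and from 33.1 through 34.9 to 36.3 CPM (log2 fold change 0.16 ± 0.041, SE), and wild-type library 2 alone reached the het range. Perineuronal net and matrix genes had 5 of 15 below 0, a median of 0.066 and 3 higher at an unadjusted p under 0.05, with Tnc, a matrix glycoprotein, at 0.25 ± 0.095 (SE) and Ptprz1, a receptor phosphatase of glia, at 0.14 ± 0.055 (SE). That list's median was 0.029, with 1 higher at that p, under the length and GC offsets. It was 0.016, with 7 of 15 below 0 and 0 higher at that p, without the 4 libraries against their label, and 0.028 without het library 7. Clock genes had 2 of 19 below 0 and a median of 0.061, which was 0.065 with the offsets, 0.039 without the 4 libraries and 0.10 without wild-type library 8.

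Glutamate receptors and scaffolds, and GABA receptors, lay near 0. The glutamate list had 13 of 40 below 0 and a median of 0.037, which was 0.0095 under the offsets (18 of 40 below 0) and 0.0038 without het library 1. The GABA list had 7 of 19 below 0 and a median of 0.018. It changed side, to -0.0091 with 12 of 19 below 0, with the offsets, and lay at -0.0060 without wild-type library 6 and -0.0032 without het library 1.

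Some of the lists and genes above are given for the other hippocampus comparisons, which share the wild-type libraries. The Mrpl40 transcript itself was not lower in either group, at -0.00044 ± 0.054 (SE) in Mrpl40 het and 0.027 ± 0.054 (SE) in double het. In libraries labelled Mrpl40 het, 22 of 36 complex I genes lay below wild type with a median of -0.020. Of complexes II to V 17 of 39 did, with a median of 0.0027, where 52.9% of all genes lay below 0. In double het these were 31 of 36 with -0.046 and 31 of 39 with -0.049, where 51.4% of all genes did. Presynaptic vesicle genes had medians of 0.050 in Mrpl40 het and 0.036 in double het, and CA3 genes of 0.25 and 0.046. In the same order, heat shock genes had medians of 0.0081 and 0.063, and immediate early genes of 0.12 and 0.028. Glycolysis had 0.046 and -0.0038, astrocyte markers -0.10 and -0.030, and the small mitochondrial ribosomal subunit -0.0091 and -0.035. Neuropeptides and granins had -0.11 and -0.030, and choroid plexus markers 0.37 and 0.28. Some single genes lay on the same side as in Slc25a1 het in both groups. Gm15710 lay at -0.21 and -0.18, Strn3 at 0.10 and 0.11, and Ndufb10 at -0.11 and -0.11. Others lay nearer to 0, Rab3a at 0.035 and -0.017 and Map1lc3a at -0.0095 and -0.053. Whether the Slc25a1 het values differ from these was not tested.

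In cortex, libraries labelled Slc25a1 het (n = 7) against wild type (n = 9) gave 0 of 20394 genes (0%) by edgeR's quasi-likelihood test, with 646 (3.17%) at an unadjusted p under 0.05. There 30 of 36 complex I genes lay below 0 with a median of -0.042, and 28 of 39 of complexes II to V with -0.024, where 50.3% of all genes did. Slc25a1 lay at -0.53 ± 0.20 (SE) in cortex. The cortex libraries include those of the animals whose hippocampus went against the label, and the cortex values here keep them. The difference between the tissues was tested within animals, in a fit of the 29 that gave both. It contrasts the 7 het with the 8 wild-type animals among them, and the other genotypes add only to the estimate of the spread. Of 21354 genes 0 (0%) passed by edgeR, 1281 (6.00%) were at an unadjusted p under 0.05, and DESeq2 called 0, with 1104 (5.17%) at that p. On this difference, where a value below 0 is a lower het effect in hippocampus than in cortex, complex I had 29 of 36 below 0 and a median of -0.052, and presynaptic vesicle genes 20 of 27 and -0.12, against 50.3% of all genes. Rab3a lay at -0.22 ± 0.061 (SE) on it, Jund at -0.30 ± 0.082 (SE) and Snap25 at -0.25 ± 0.093 (SE), and none of the 3 passed the test. Slc25a1 lay at -0.020 ± 0.063 (SE) on the same difference.

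**Figure D5:**
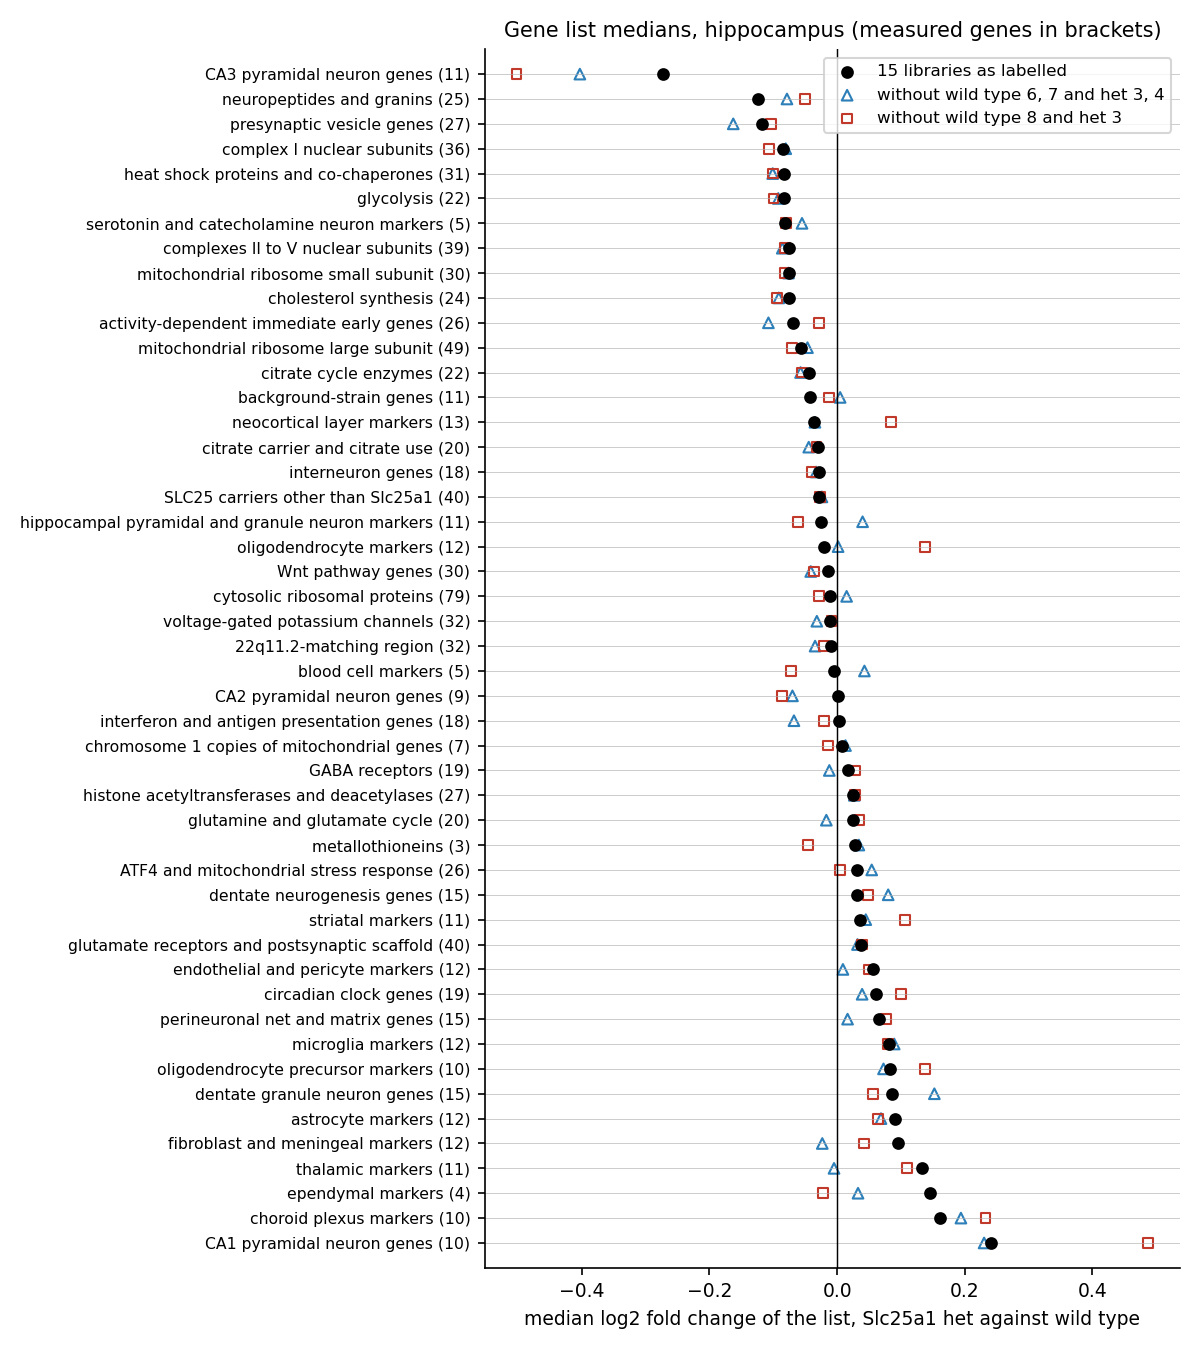
Median log2 fold change in hippocampus labelled Slc25a1 het against wild type (x axis) of 48 gene lists (y axis, measured genes in brackets), for all 15 libraries, without wild-type libraries 6 and 7 and het libraries 3 and 4, and without wild-type library 8 and het library 3. CA3 genes lie lowest at -0.27 and CA1 genes highest at 0.24 over all 15; the cerebellar list, at 2.10, is not drawn, and lists near 0 such as the oligodendrocyte markers change side between the fits.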

How the data were processed

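Poly(A) RNA of cortex and hippocampus was sequenced from directional libraries, per the labels' protocols. The deposited table holds raw counts per gene, and a second table holds normalized counts, a signal equal to the counts divided by 1 factor per library; per the submitters' processing notes HISAT2, featureCounts and DESeq2 were used with GRCm39, with no version and no strand setting given. Antisense or overlapping genes therefore cannot be told apart here. The mitochondrial genome's 37 rows hold 0 counts.

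Counts were tested with edgeR 4.0.16 (quasi-likelihood, TMM, filterByExpr, robust) in R 4.3.3 on all 29 hippocampus libraries, which share 1 estimate of the spread, with Benjamini-Hochberg adjustment over 20162 genes and a threshold of 0.05. CPM use TMM library sizes, and log2 CPM a prior count of 2. The tissue difference used the animal as a block. DESeq2 1.42.0 and limma 3.58.1 on the deposited normalized counts were alternatives, with others for filters, scaling, left-out libraries, the replicate block, and length and GC offsets (GENCODE vM21, 97.4% of genes). The edgeR fit was tested on simulated data.

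Genes were named by a rule: Slc25a1, Mrpl40, the 15 smallest p among genes whose mean log2 CPM was 0 or more, predicted genes (Gm or Rik symbols) left out, and the 2 smallest p in each list. Others are said to be chosen after their values were seen. Not every gene under the rule is described. Left out were, among others, Cacng2 and Grm4 of the glutamate receptors (log2 fold changes -0.16 and 0.91), Sirt5 of the histone deacetylases (-0.14) and Reln of the interneuron genes (0.25). Reln was the 1 interneuron gene higher at an unadjusted p under 0.05, and without het library 3 there were 0. In the glutamate list 2 were higher at that p, and 1 without het library 3. The libraries, the gene lists and this comparison were chosen with earlier results of these data known. The labels give 1 animal per library, so p-values measure the spread between animals.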

Additional observations from a re-analysis of the deposited data

Results flagged for a closer look

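Of 254 groups of values checked, 24 had 1 library whose gap to the nearest other exceeded Dixon's 95% limit, and chance alone gives about 1 in 20. Values are log2 CPM, with the nearest other library of the group after each.

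In wild type, library 8 was the one apart for Txnrd2 (3.63, nearest 3.75) and Dsp (6.17, nearest 6.81). It was also apart in the means of the circadian clock genes (5.86, nearest 5.70), the dentate granule neuron genes (6.02, nearest 6.44), the metallothioneins (4.82, nearest 5.24), the thalamic markers (3.75, nearest 3.37) and the neocortical layer markers (4.59, nearest 3.73). Library 6 was highest for Ndufb10 (6.77, nearest 6.63) and Yeats4 (5.06, nearest 4.91), and library 5 for Cbln3 (1.2, nearest -0.042).

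In Slc25a1 het, library 3 was apart for Cbln3 (7.57, nearest 1.22), Fat2 (6.23, nearest 0.27), Zic1 (7.19, nearest 3.47) and Fosb (1.94, nearest 2.38). It was also apart in the means of the cerebellar markers (5.99, nearest 2.43) and the thalamic markers (4.19, nearest 3.50). The thalamic list includes Zic1, so its mean is not separate from the cerebellar genes. Its median log2 fold change was 0.13 over all libraries and 0.048 without het library 3. Library 7 was lowest for Rab3a (8.18, nearest 8.37), Chgb (8.63, nearest 9.19), Got2 (7.08, nearest 7.24) and Idh3a (7.28, nearest 7.42). Library 1 was highest for Cck (7.15, nearest 6.67), library 4 for Mrpl12 (5.14, nearest 5.03) and library 6 for Wdfy1 (5.34, nearest 4.80), and library 5 was lowest for Cycs (5.39, nearest 5.47).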

How the results depend on the processing

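No gene passed in 23 of the 25 alternatives of the hippocampus comparison, and in all 6 of the tissue difference. With the replicate block, edgeR called 3 genes: 1110065P20Rik (log2 fold change -0.54, adjusted p 0.00847), Jund (-0.35, adjusted p 0.0126) and Gm15710 (-0.29, adjusted p 0.0195). Same-numbered libraries of wild type and Slc25a1 het did not deviate together (correlations from -0.131 to 0.113 over the 6 shared numbers). That check left out the other genotypes in the block. It cannot show whether the numbers pair the animals, which the labels do not say. Without the 4 libraries against their label 1 gene was called, Slc25a1 itself (-1.08, adjusted p 0.0303), which is no test because they were picked by its level; Zic1 then lay at -0.060, the reverse of its direction over all 15 libraries. Leaving out 1 library at a time gave 0 to 0 genes and -0.69 to -0.47 for Slc25a1. Of the list medians, 2 moved by more than the SD between libraries of a group. The cerebellar one was 0.30 with DESeq2, 0.63 with limma, 0.11 without the 4 libraries, 0.088 without het library 3 and 0.12 without wild-type library 8 and het library 3; that of histone acetyltransferases and deacetylases was 0.0055 without het library 6. Within that spread, 20 of the 49 list medians changed side of 0 in at least 1 of the 25 alternatives; among them, interferon genes kept theirs in 11, CA2 genes in 13, GABA receptors in 21 and the 22q11.2-matching region in 22. The CA1 median ran from 0.022 to 0.49. Leaving out wild-type library 8 with het library 3, and the length and GC offsets, were chosen after seeing the data. The causes were not tested. The 7 and 8 libraries include 4 at the Slc25a1 level of the other label, which limits what the comparison can show.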
